A study of Mus musculus with 6 samples.

Results

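MHC class II and costimulatory genes were followed in mouse eosinophils exposed to the cytokine IL-33. The set held 10 genes, taken by symbol from the 23420 genes of the table: the class II genes H2-Aa, H2-Ab1 and Cd74, the B7 family ligands Cd80, Cd86, Cd274, Pdcd1lg2 and Icosl, and the activation markers Cd69 and Cd83. Wild-type bone marrow cells had been matured into eosinophils and then received IL-33 at 2.5 ng/mL for 3 hours (3 libraries) or were left without it (PBS, 3 libraries). Both groups shared the same culture: stem cell factor and FLT3 ligand at 100 ng/mL each at the start, then IL-5 at 20 ng/mL, with dead cells removed on day 14 before treatment. The labels give neither the mouse strain nor whether the libraries of a group came from separate animals or cultures, so the p-values measure only how far these libraries differ, and that spread may be technical.

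MHC class II molecules present peptides to helper T cells. They are dimers of an alpha and a beta chain that assemble around the invariant chain CD74 and acquire peptide with the help of H2-DM. B7 family ligands on the presenting cell then tune the T cell response: CD80 and CD86 bind CD28 and CTLA-4, ICOS ligand binds ICOS, and PD-L1 (Cd274) and PD-L2 (Pdcd1lg2) bind the inhibitory receptor PD-1. Eosinophils are granulocytes best known for granule proteins, and activated ones have been described to carry class II and costimulatory molecules as well as the early activation marker CD69.

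The values are the authors' normalized counts, in which the reads of each gene were divided by 1 factor per library. Between 8218303 and 10785521 reads were recovered per library, and 1 read was worth between 0.699 and 1.69 normalized counts. Rn45s, the ribosomal RNA precursor, took 24.3%, 59.6% and 54.8% of the reads in IL-33 replicates 1, 2 and 3, against 24.8%, 23.3% and 13.7% in PBS replicates 1, 2 and 3. This left between 4229504 and 7129435 reads of other genes in IL-33 libraries and between 6592044 and 7091546 in PBS libraries. The part of this imbalance in the results was not tested, and its arithmetic effect is given by scalings with and without Rn45s.

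The labelled cell type was checked against its markers. All 12 eosinophil markers passed the filter on low values, and their summed normalized counts were 25059 to 35783 in IL-33 libraries and 54287 to 65300 in PBS libraries. Of these 12, 10 were called lower and Gata1, a transcription factor of the eosinophil lineage, was called higher at 1.53 (adjusted p = 0.00479, limma). edgeR called 7 lower and DESeq2 8, and limma fits that left out 1 library called 5 to 11. By limma, 14.4% of all genes tested were lower and 17.4% higher. Prg2 and Alox15 made up most of the sum, and Ear2 passed the filter only through PBS libraries. In these bulk samples, fewer cells of a type and less RNA per cell cannot be told apart. Of 8 B cell markers, 7 stayed below 10 normalized counts in every library and Igll1 was at 0, with list sums of 33.9 to 53.9 in IL-33 libraries and 48.7 to 68.5 in PBS libraries. Of 10 dendritic cell markers, 7 stayed below 10 in every library. Itgax and Batf3 were the dendritic cell markers that were tested, and both were higher with IL-33, with list sums of 661 to 974.5 in IL-33 libraries and 349 to 424 in PBS libraries. Of 10 macrophage and monocyte markers, 4 stayed below 10 throughout. Csf1r, Emr1 (now Adgre1) and Cd14 were higher with IL-33, and the list summed to 25125 to 31973 in IL-33 libraries, against 8943 to 11465 in PBS libraries. Most of that sum was Emr1, and Ly6c2 had a negative value that was not called (−0.84, adjusted p = 0.132, limma). C1qa, C1qc, Mertk and Fcgr1 were the 4 below 10, and Adgre1 (F4/80) is also a known surface protein of mouse eosinophils. Neutrophil markers summed to 2176 to 2596 with IL-33 and 2188 to 2782 with PBS, and mast cell and basophil markers to 2685 to 4257 with IL-33 and 1745 to 3239 with PBS. The mast cell and basophil sum was mostly Hdc, which was not called (0.81, adjusted p = 0.1001, limma). Of 6 such markers tested, 0 were higher by limma, edgeR or DESeq2 (1 at an unadjusted p under 0.05 by limma), and Cpa3 (−2.81) and Ms4a2 (−1.81), which passed the filter only through PBS libraries, were lower. With the replicate number as a block, Hdc was called higher (adjusted p = 0.0268, limma) and Ms4a2 was not called (adjusted p = 0.0583, limma). T and NK cell markers summed to 16.9 to 46.1 with IL-33 and 28.7 to 40.0 with PBS. The part of these cell types in the results was not tested.

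Of the 10 genes, 3 were higher with IL-33. These were Cd69, H2-Ab1 and Icosl, while 0 genes were lower, 6 did not pass the test and Cd83 lay below the filter. The test was limma's moderated test on log2(normalized count + 1), called at an adjusted p under 0.05 over the 10544 genes with at least 10 normalized counts in at least 3 libraries. Of all genes tested, 17.4% were called higher and 14.4% lower (31.9% in either direction), a background against which 3 of 9 genes is a small count. With the replicate number as a block these shares were 15.4%, 12.3% and 27.7%, and the set again had 3 higher and 0 lower. No gene of the set was lower at an unadjusted p under 0.05 (count 0), and edgeR and DESeq2 on the recovered reads also called 3 higher and 0 lower. The median log2 fold change of the 9 genes was 0.49, against −0.03 for all genes tested. In fits that left out 1 library it ran from 0.09 (without IL-33 replicate 1) to 0.80 (without IL-33 replicate 3). Scaled to equal totals it was −0.54, against −1.06 for all genes tested. Scaled to equal totals without Rn45s it was 0.07, against −0.45. On the filter, 8 of the 10 genes reached 10 normalized counts in every library, while Cd86 passed the filter through its 3 PBS libraries and IL-33 replicate 1.

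**Figure D1:**
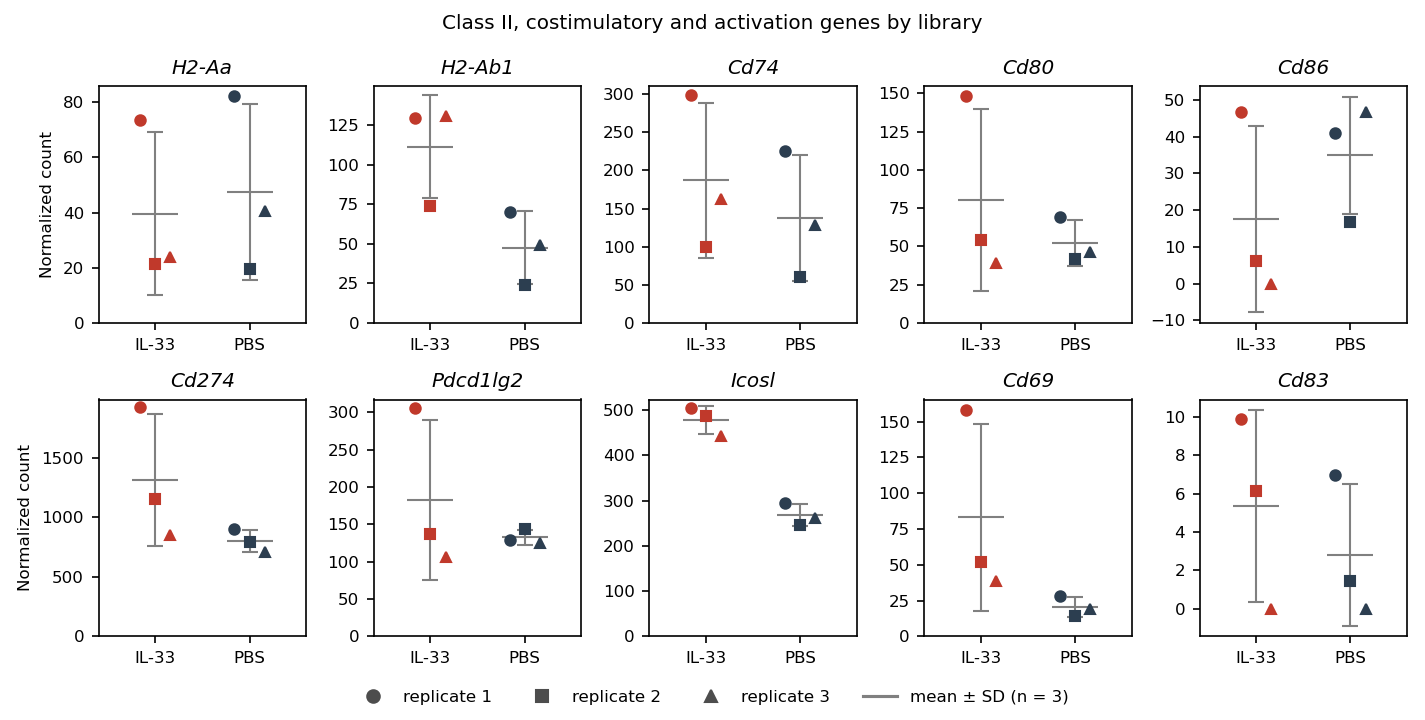
Normalized counts of the 10 genes in each library, IL-33 on the left and PBS on the right of each panel, with the symbol giving the replicate and grey bars the mean ± SD of 3 libraries on linear axes. Icosl, H2-Ab1 and Cd69 show IL-33 libraries above all PBS libraries, and IL-33 replicate 1 holds the highest IL-33 value in 9 of 10 genes.

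Of the class II genes, H2-Ab1 was called higher, and H2-Aa and Cd74 were not called. H2-Ab1, which encodes the beta chain of the A molecule (chromosome 17, 34257689 to 34269419, GRCm38), had 129, 73.8 and 130.5 normalized counts in IL-33 replicates 1, 2 and 3, against 69.9, 24.0 and 48.9 in PBS replicates 1, 2 and 3. Every IL-33 library lay above every PBS library, as in 25.5% of all genes tested (50.2% did not overlap in either direction). It averaged 111 ± 32.4 with IL-33 and 47.6 ± 23.0 with PBS (SD, n = 3 each), a log2 fold change of 1.29 (SE 0.41, 95% interval 0.35 to 2.22, adjusted p = 0.044, limma). H2-Aa, the alpha chain that pairs with it (chromosome 17, 34282744 to 34287823), had 73.7, 21.5 and 23.7 normalized counts with IL-33 and 82.3, 19.6 and 40.5 with PBS. Its groups overlapped fully, with a log2 fold change of −0.26 and a 95% interval of −1.64 to 1.12 (adjusted p = 0.758, limma). Cd74, the invariant chain that escorts the dimer (chromosome 18, 60803848 to 60812652), had 299, 100.0 and 163 normalized counts with IL-33 and 225, 59.7 and 128 with PBS. It was not called either, at 0.49 with an interval of −0.70 to 1.69 (adjusted p = 0.482, limma).

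The call of H2-Ab1 was not stable in fits that left out 1 library. Leaving out IL-33 replicate 2 gave 1.56 with an adjusted p of 0.0578 by limma, and leaving out IL-33 replicate 3 gave 1.15 with 0.101. Leaving out PBS replicate 2 gave 0.87 with an adjusted p of 0.138 by limma, and PBS replicate 3 gave 1.37 with 0.115, so that it was called in 2 of 6 such fits (adjusted p 0.0281 to 0.138). It stayed positive in each of these fits. With all libraries kept but no filter, H2-Ab1 also lost its call, while Icosl and Cd69 kept theirs.

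Reads of the beta chain H2-Ab1 relative to its alpha chain H2-Aa do not depend on how libraries are scaled. This ratio was chosen after its values were seen. H2-Ab1 had 144 reads beside 82 of H2-Aa in IL-33 replicate 1, 48 beside 14 in replicate 2 and 77 beside 14 in replicate 3. In PBS replicates 1, 2 and 3 it had 90 beside 106, 33 beside 27 and 70 beside 58. H2-Ab1 thus made up 63.7%, 77.4% and 84.6% of the reads of both genes with IL-33 and 45.9%, 55.0% and 54.7% with PBS. The exact 95% binomial (Clopper-Pearson) intervals, which cover counting error only, were 57.1% to 70.0%, 65.0% to 87.1% and 75.5% to 91.3% with IL-33, against 38.8% to 53.2%, 41.6% to 67.9% and 45.7% to 63.5% with PBS. All 3 IL-33 shares lay above all 3 PBS shares, although the interval of IL-33 replicate 1 overlapped those of PBS replicates 2 and 3. The intervals of IL-33 replicate 2 and PBS replicate 2 overlapped too. The mean log2 ratio of H2-Ab1 to H2-Aa was 1.68 ± 0.83 with IL-33 and 0.11 ± 0.30 with PBS (SD, n = 3 each), and the exact two-sided permutation test gave p = 0.1, the smallest that 3 against 3 libraries allow (0.125 adjusted over 5 ratios).

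H2-Eb1, the beta chain of the E molecule, was also set against H2-Aa. H2-Aa belongs to the A molecule, so this ratio does not compare partner chains. H2-Eb1 is not one of the 10 genes and was singled out after its values were seen. It made up 70.3%, 81.1% and 85.1% of the reads of both genes with IL-33 and 58.6%, 50.0% and 52.1% with PBS (exact permutation p = 0.1, adjusted 0.125). Its own normalized counts were 174, 92.3 and 136 with IL-33 and 116, 19.6 and 44.0 with PBS, so that IL-33 replicate 2 fell within the PBS range, and its log2 fold change of 1.45 was not called (SE 0.57, adjusted p = 0.082, limma). The mean log2 ratio of Cd74 to H2-Aa was 2.34 ± 0.39 with IL-33 and 1.57 ± 0.11 with PBS (exact permutation p = 0.1, adjusted 0.125). That of H2-Ab1 to Cd74 was −0.65 ± 0.48 with IL-33 and −1.46 ± 0.20 with PBS (exact permutation p = 0.1, adjusted 0.125, SD and n = 3 in each group for both ratios). These 4 ratios were chosen with their values seen and share their genes, so they are not separate observations, and none can reach 0.05 at this number of libraries.

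**Figure D2:**
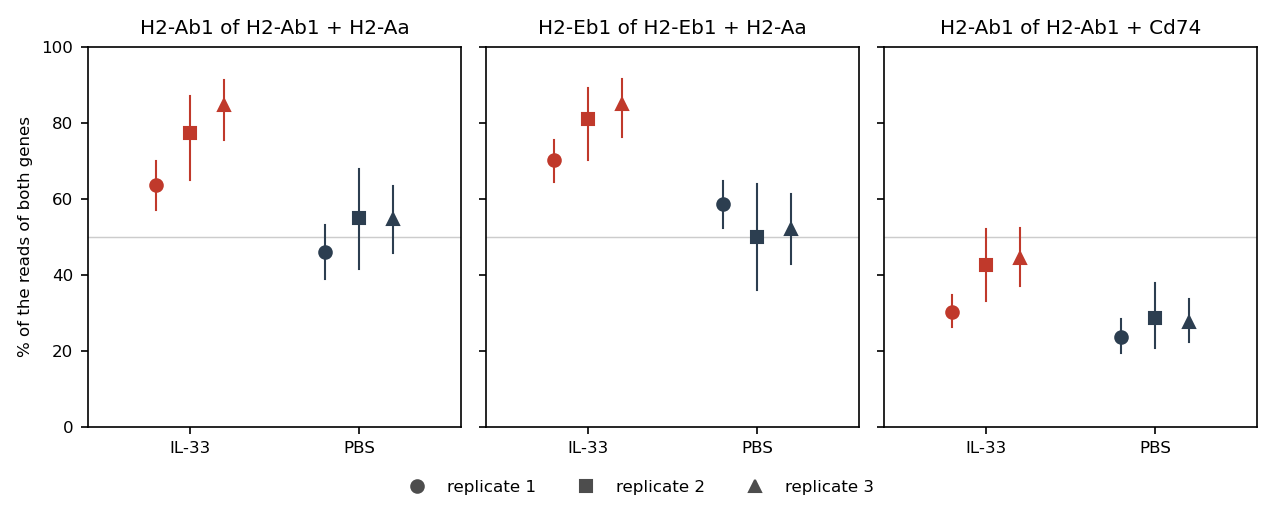
Share of the first gene in the summed reads of 2 class II genes, in percent, for each library, with exact 95% binomial intervals, IL-33 left of PBS. For H2-Ab1 with H2-Aa, IL-33 libraries sit at 63.7% to 84.6% and PBS libraries at 45.9% to 55.0%.

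Class II RNA also varied within each group. H2-Aa and Cd74 were highest in replicate 1 and lowest in replicate 2 of both the IL-33 and the PBS libraries. So was Ciita, the master regulator of class II transcription, at 27.9, 15.4 and 18.6 normalized counts with IL-33 and 30.3, 8.003 and 13.98 with PBS. The order of IL-33 replicates 2 and 3 rests on few reads, 14 and 14 for H2-Aa and 10 and 11 for Ciita. Not all class II genes kept this order. H2-Ab1 was highest in IL-33 replicate 3 (130.5), and H2-DMa had 29.7, 32.3 and 50.8 in IL-33 replicates 1, 2 and 3. The part of other cell types in the class II levels was not tested.

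The promoter of H2-Aa is shown because it holds a match to 2 of the motifs searched. Windows of 300 bases from RefSeq's promoter table (GRCm38.p6), from 250 before to 50 after RefSeq's annotated start, were searched for 5 of the 10 genes. H2-Ab1 and Cd69, which were called higher, were not among these. Both strands were searched for the kB motif of NF-kB, the AP-1 motif TGANTCA, the GAS motif TTCNNNGAA of STAT factors and the Y box core CCAAT, which NF-Y binds in class II promoters. Of 32851 windows, 4.51% held the kB motif, 7.81% the AP-1 motif, 8.30% the GAS motif and 37.4% the Y box core. The 250 bases before the start are printed 5′ to 3′ on the gene's strand, with matches in capitals.
H2-Aa, minus strand of chr17:34287824-34288073: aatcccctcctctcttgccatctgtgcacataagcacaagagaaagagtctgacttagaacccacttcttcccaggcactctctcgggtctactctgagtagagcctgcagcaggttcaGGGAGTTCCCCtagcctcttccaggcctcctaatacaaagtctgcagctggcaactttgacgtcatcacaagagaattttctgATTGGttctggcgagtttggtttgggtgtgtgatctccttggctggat
The first run of capitals holds 2 overlapping kB matches, 1 on each strand, starting at −131 and −130 from the annotated start. The second is the Y box core read on the other strand, at −48. A match describes these letters only.

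Most other genes of the class II pathway were not called. Of 14 listed genes, 11 could be tested. Among these 3 were lower, 0 were higher and 8 were not called, and they had a median log2 fold change of −0.50 against −0.03 for all genes tested. In fits that left out 1 library this median lay nearer 0, from −0.33 to −0.12. Of all genes tested, 14.4% were called lower and 17.4% higher. edgeR and DESeq2 also called 0 higher, and at an unadjusted p under 0.05 limma had 2 higher and 3 lower. The 2 higher were H2-Eb1 and H2-Ob. H2-Ob had 17.1, 16.9 and 18.6 normalized counts with IL-33 and 10.9, 9.46 and 5.59 with PBS (0.99, SE 0.37, adjusted p = 0.0722, limma). With the replicate number as a block, 1 gene of the list was higher, H2-Eb1, and 2 were lower. March1, a ubiquitin ligase that removes class II and CD86 from the cell surface, had 177, 61.5 and 55.9 normalized counts with IL-33 (replicates 1 to 3) and 374, 430.0 and 565 with PBS. All IL-33 libraries lay far below all PBS libraries, as in 24.7% of genes tested, and the log2 difference was −2.39 (SE 0.42, adjusted p = 0.00562, limma). It was called without each library in turn (−2.92 to −2.09). Lgmn, a lysosomal protease of antigen processing, fell as well, at 68.3, 92.3 and 64.4 normalized counts with IL-33 and 155, 141 and 173 with PBS (−1.06, SE 0.22, adjusted p = 0.0101, limma). H2-DMb1, a chain of the peptide editor H2-DM, had 8, 3 and 2 reads with IL-33 and 16, 17 and 37 with PBS. Its log2 fold change was −1.53 (SE 0.46, adjusted p = 0.0379, limma). It passed the filter only through the PBS libraries, where it is high, so its call is no support for the count of lower genes. The call was lost without IL-33 replicate 2 (adjusted p = 0.0904, limma) or 3 (0.0722) and with no filter (0.0542). Reads may be shared with its near copy H2-DMb2. Without PBS replicate 3 the count of lower genes was 1, March1, and Lgmn was not called (adjusted p = 0.0655, limma). It was 2 in 4 of the other fits and 4 without IL-33 replicate 1.

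None of the 8 regulators of class II transcription was called (0 higher and 0 lower by limma or edgeR). At an unadjusted p under 0.05 limma had 0 higher and 1 lower. That gene was Creb1, at −0.76 (SE 0.25, adjusted p = 0.0508, limma), and DESeq2 called 1 lower. Rfxap, a subunit of the RFX complex on class II promoters, had the next smallest p, at 0.94 (SE 0.48, adjusted p = 0.165, limma). Ciita was not called, at 0.38 (SE 0.49, adjusted p = 0.566, limma).

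Among the B7 family ligands, Icosl was the one called. Icosl, the ligand of the T cell receptor ICOS (chromosome 10, 78069302 to 78083913), had 505, 488 and 444 normalized counts in IL-33 replicates 1, 2 and 3, against 294, 247 and 261 in PBS replicates 1, 2 and 3. The libraries of each group lay close together and well apart from the other group. Icosl averaged 479 ± 31.5 with IL-33 and 268 ± 24.1 with PBS (SD, n = 3 each), a log2 fold change of 0.84 (SE 0.17, 95% interval 0.46 to 1.22, adjusted p = 0.00872, limma). It kept its size with any library left out, at 0.78 to 0.91, while the call was lost when PBS replicate 2 or PBS replicate 3 was left out, with adjusted p of 0.0576 and 0.0563 by limma in that order.

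Cd274, which encodes PD-L1 (chromosome 19, 29367455 to 29388095), was the most abundant gene of the set. It had 1926, 1155 and 851 normalized counts with IL-33 and 899, 792 and 711 with PBS. IL-33 replicates 1 and 2 lay above all PBS libraries and replicate 3 within their range. At 0.63 on the log2 scale (SE 0.28, 95% interval −0.02 to 1.29, adjusted p = 0.119, limma) it was not called, but it was called without IL-33 replicate 3 (0.90, adjusted p = 0.0319, limma), and it was 0.31 without IL-33 replicate 1. Of the exonic bases of Cd274, 14.1% overlap those of AC119228.1, so some reads may belong to that gene.

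Pdcd1lg2, which encodes PD-L2 and is a neighbour of Cd274 (chromosome 19, 29410919 to 29471161), had 306, 137 and 107 normalized counts with IL-33 and 129, 143 and 125 with PBS. Only IL-33 replicate 1 lay outside the PBS range on the high side, and replicate 3 lay below it. The log2 fold change was 0.32 (95% interval −0.51 to 1.14, adjusted p = 0.516, limma), and −0.13 without IL-33 replicate 1. The ratio of Cd274 to Pdcd1lg2 reads was 6.30, 8.44 and 7.97 with IL-33, against 6.98, 5.53 and 5.69 with PBS, which overlap (exact permutation p = 0.2, adjusted 0.2 over 5 ratios).

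Cd80 and Cd86 encode the ligands of CD28 and CTLA-4 and were low. Cd80 (chromosome 16, 38455561 to 38496335) had 148, 53.8 and 39.0 normalized counts with IL-33 and 69.1, 41.5 and 46.1 with PBS, and its log2 fold change of 0.41 was not called (95% interval −0.67 to 1.49, adjusted p = 0.521, limma). Cd86 (chromosome 16, 36603869 to 36666081) had 46.8, 6.15 and 0 normalized counts with IL-33, from 52, 4 and 0 reads. In PBS libraries it had 41.2, 16.7 and 46.8, from 53, 23 and 67 reads. IL-33 replicate 1 lay at the PBS level and the other IL-33 libraries below it. A count of 0 in IL-33 replicate 3 allows up to 5.08 normalized counts (3 reads), counting error only. The log2 fold change of −2.24 had a wide 95% interval, −4.98 to 0.51 (adjusted p = 0.178, limma). Without IL-33 replicate 1 the value was −3.62 (adjusted p = 0.00174, limma), but Cd86 then passed the filter only through the PBS libraries, where it is high, so this call is given as a description. IL-33 replicate 1 alone gave 0.54. The estimate depends on the 1 library at 0, and was −0.83 without IL-33 replicate 3 and −0.79 with edgeR.

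The promoters of the ligand genes are shown for Icosl, which was called, and for the neighbours Cd274 and Pdcd1lg2, printed as above.
Icosl, plus strand of chr10:78069118-78069367: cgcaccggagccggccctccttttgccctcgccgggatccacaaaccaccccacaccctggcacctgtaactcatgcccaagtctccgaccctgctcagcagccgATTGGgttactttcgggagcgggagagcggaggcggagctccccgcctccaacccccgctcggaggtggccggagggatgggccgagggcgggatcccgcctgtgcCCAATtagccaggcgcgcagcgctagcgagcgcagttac
Cd274, plus strand of chr19:29367188-29367437: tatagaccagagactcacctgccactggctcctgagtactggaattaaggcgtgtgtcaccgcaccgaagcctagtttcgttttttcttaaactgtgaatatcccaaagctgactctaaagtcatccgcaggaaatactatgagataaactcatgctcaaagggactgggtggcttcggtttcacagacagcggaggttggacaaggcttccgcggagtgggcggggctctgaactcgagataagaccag
Pdcd1lg2, plus strand of chr19:29410669-29410918: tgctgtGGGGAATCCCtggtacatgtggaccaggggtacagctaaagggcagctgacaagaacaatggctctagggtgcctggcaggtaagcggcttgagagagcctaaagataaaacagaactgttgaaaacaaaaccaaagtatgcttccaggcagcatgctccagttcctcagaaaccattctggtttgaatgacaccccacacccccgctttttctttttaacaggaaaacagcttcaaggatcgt
Icosl held 2 Y box cores, at −145 and −39 from its annotated start. Pdcd1lg2 held a kB match at −244, which reads as the motif on both strands. Cd274 held none of the 4 motifs in its window, and Cd80 held 1 AP-1 match at −42. No match says only that these letters are not in this window.

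Relatives of the B7 ligands were mostly absent or not called. Of 6 listed genes, 3 were tested: 1 was higher by limma and edgeR and 2 by DESeq2. Among all genes tested, limma called 17.4% higher and 14.4% lower. Of the 3 genes, 0 were lower by limma, edgeR or DESeq2, and Cd276 was the 1 lower at an unadjusted p under 0.05 (limma). The higher gene was Btnl9, a butyrophilin-like gene, at 28.8, 50.8 and 91.5 normalized counts with IL-33 and 6.99, 15.3 and 5.59 with PBS (2.46, SE 0.51, adjusted p = 0.0101, limma), although leaving out PBS replicate 3 ended that call (adjusted p = 0.0528, limma). Vsir, which encodes the inhibitory ligand VISTA and is listed as 4632428N05Rik, had 3409, 5484 and 6527 normalized counts with IL-33 and 3228, 3332 and 3330.2 with PBS, and was not called (0.59, SE 0.24, adjusted p = 0.0881, limma). The receptors of these ligands were near 0: Ctla4, Icos and Pdcd1 had 0 reads in all 6 libraries, and Cd28 had between 0 and 17 reads.

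Other costimulatory genes of antigen-presenting cells were tested in 5 of 10 cases, with 2 higher and 0 lower by limma, edgeR and DESeq2 (0 lower at an unadjusted p under 0.05). By limma, 17.4% of all genes tested were higher and 14.4% lower. Cd48, a ligand of CD2 family receptors, had 616, 317 and 261 normalized counts with IL-33 and 190.3, 170 and 185 with PBS (1.03, SE 0.31, adjusted p = 0.0358, limma). Tnfsf14, which encodes LIGHT, had 1890, 1403 and 1152 with IL-33 and 894, 821 and 860.3 with PBS (0.76, SE 0.20, adjusted p = 0.0252, limma). Neither was called without IL-33 replicate 2 or any 1 of the PBS libraries. Cd40 had between 0 and 6 reads per library, and Cd70 had 0 in all.

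Cd69 had the largest log2 fold change of the 9 genes tested. It encodes a C-type lectin that appears early on activated leukocytes and holds them in tissue (chromosome 6, 129267325 to 129275436). It had 158, 52.3 and 39.0 normalized counts in IL-33 replicates 1, 2 and 3, against 28.0, 14.6 and 18.9 in PBS replicates 1, 2 and 3. All IL-33 libraries lay above all PBS libraries, as in 25.5% of genes tested, and replicate 1 stood well above the other IL-33 libraries. The means were 83.2 ± 65.4 with IL-33 and 20.5 ± 6.84 with PBS (SD, n = 3 each), a change of 1.75 on the log2 scale (SE 0.51, 95% interval 0.57 to 2.92, adjusted p = 0.0341, limma), from 23 to 176 reads per library with IL-33 and 20 to 36 with PBS. It was 1.15 without IL-33 replicate 1 (adjusted p = 0.0149, limma). Leaving out IL-33 replicate 2 ended the call (1.94, adjusted p = 0.0713, limma). Leaving out PBS replicate 1, 2 or 3 did so too, at 1.99, 1.54 and 1.72 with adjusted p of 0.0614, 0.121 and 0.115 by limma.

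Cd83, a marker of mature dendritic cells that stabilizes surface class II and CD86 (chromosome 13, 43784775 to 43803132), was hardly detected. With IL-33 it had 11, 4 and 0 reads, against 9, 2 and 0 with PBS. It stayed below the filter and has no test.

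S1pr1, the egress receptor that the CD69 protein binds and brings down from the surface, fell in RNA. It had 25.2, 6.15 and 23.7 normalized counts with IL-33 and 56.7, 57.5 and 90.2 with PBS. All IL-33 libraries lay below all PBS libraries, as in 24.7% of genes tested. S1pr1 was called lower (−2.02, SE 0.51, adjusted p = 0.0204, limma), but not without PBS replicate 1, 2 or 3, with adjusted p up to 0.0979 (limma). Of the 3 genes tested in this list of 4, 0 were higher (0 also at an unadjusted p under 0.05 and by edgeR and DESeq2) and 1 was lower. By limma, 17.4% of all genes tested were higher and 14.4% lower.

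Of 8 other activation markers tested, 3 were higher and 2 lower, where limma called 17.4% of all genes tested higher and 14.4% lower. Icam1, an adhesion molecule that leukocyte integrins bind, was higher at 3.66 (SE 0.16), Cd63, a tetraspanin of granule membranes, at 0.89 (SE 0.18), and Plaur, the urokinase receptor, at 0.62 (SE 0.19), all log2 fold changes. Fcgr3, a low-affinity IgG receptor, fell by 1.55 on the log2 scale (SE 0.38). Icam1 was the gene of these 4 called without each library in turn. The counts were 1 higher and 1 lower without PBS replicate 2, and 1 higher and 0 lower without PBS replicate 3.

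**Figure D3:**
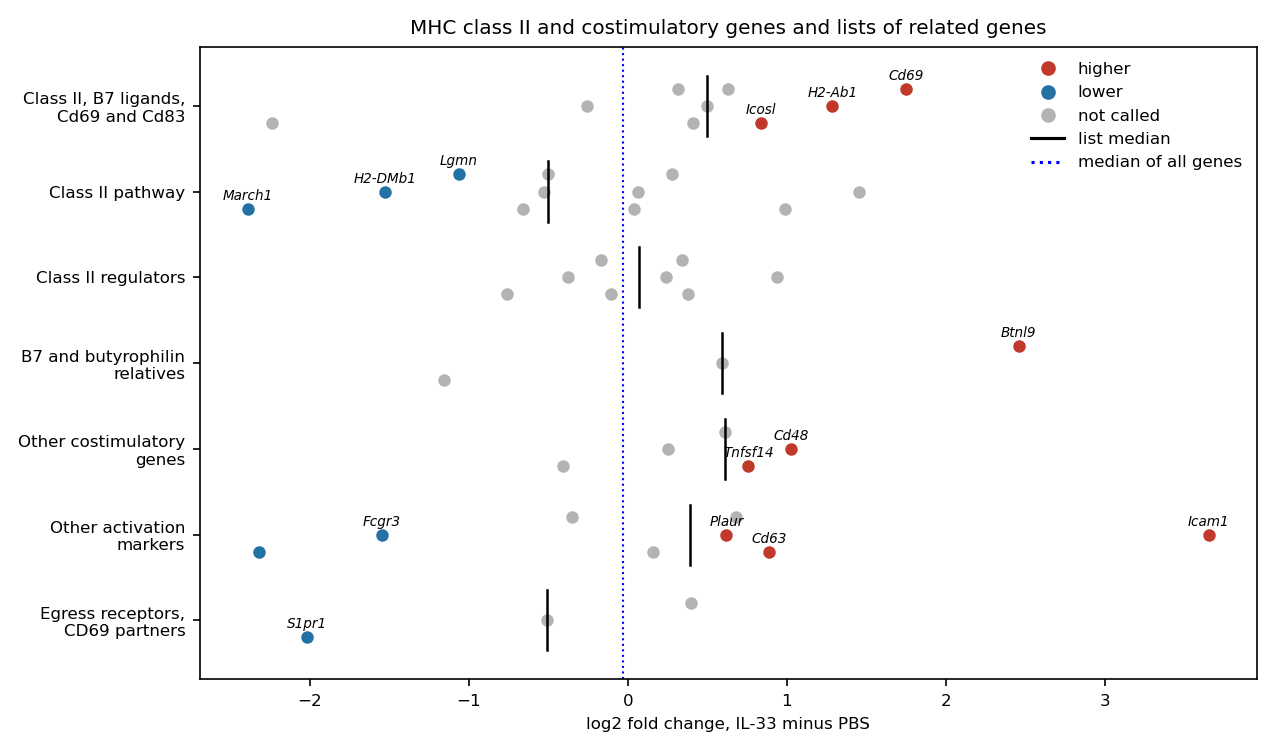
Log2 fold change of IL-33 minus PBS for the genes tested in the set and in each related list, coloured by call, with black bars for list medians and a dotted line for the median of all genes (−0.03). March1, at −2.39, and Icam1, at 3.66, mark the ends of the range, and the set itself has 3 genes called higher.

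Levels of different genes were set side by side per kilobase of annotated exons, merged over all transcripts of a gene. The merged length can exceed that of any 1 transcript, which lowers the value, so the ranks are approximate. It was 6509 bases for Cd69 and 3798 for H2-Aa. By this measure Cd274 led in PBS libraries at 221 normalized counts per kilobase (range 196 to 248). Cd74 followed at 81.9 (35.5 to 134), Pdcd1lg2 at 67.5 (63.8 to 73.1) and Icosl at 57.9 (53.5 to 63.7). The ranges of Cd74, Pdcd1lg2 and Icosl touch or overlap, except that all Pdcd1lg2 libraries lay just above all Icosl libraries. H2-Ab1 at 18.5, Cd80 at 14.1, H2-Aa at 12.5 and Cd86 at 9.53 formed a lower tier whose ranges overlap from neighbour to neighbour and lie below those of Icosl. With these lengths Cd69 at 3.14 and Cd83 at 1.09 were lowest, with ranges of 2.24 to 4.30 and 0 to 2.72 that overlap. With IL-33 the per-kilobase means were 362 for Cd274, 111 for Cd74, 104 for Icosl and 93.4 for Pdcd1lg2. They were 43.3 for H2-Ab1, 21.7 for Cd80, 12.8 for Cd69, 10.4 for H2-Aa, 4.82 for Cd86 and 2.08 for Cd83. Per kilobase, H2-Ab1 lay above H2-Aa within each of the 6 libraries, with lengths of 2568 and 3798 bases. That order depends on the lengths used, since PBS replicate 1 had 90 reads of H2-Ab1 and 106 of H2-Aa. The per-kilobase range of H2-Ab1 was 28.7 to 50.8 with IL-33 and 9.35 to 27.2 with PBS. For H2-Aa it was 5.67 to 19.4 with IL-33 and 5.17 to 21.7 with PBS.

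IL-33 replicate 1 stood apart in these genes. It held the highest IL-33 value in 9 of the 10 genes, while 41.7% of all genes tested were highest there. PBS replicate 1 held the highest PBS value in 8 of the 10 genes, against 34.6% of all genes tested. With IL-33 replicate 1 alone set against the 3 PBS libraries, 6 genes passed limma's threshold, with the lone library assumed to vary like the PBS libraries. The library was singled out with its high values known, so these calls support nothing and are given as a description. In that comparison the log2 fold changes were 1.52 for Cd80, 1.27 for Cd274 and 1.203 for Pdcd1lg2. The Rn45s share of IL-33 replicate 1 lay within the PBS range, and the other IL-33 libraries lay far above it; its part in the result was not tested.

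The calls depended on how the libraries were scaled. Scaled to equal totals, all genes tested had a median log2 change of −1.06, and to equal totals without Rn45s it was −0.45. Under both, 0 of the 10 genes were called. Equal totals gave 0.74 for Cd69 and 0.26 for H2-Ab1, while Icosl changed sign to −0.20. Without Rn45s the values were 1.34 for Cd69, 0.87 for H2-Ab1 and 0.42 for Icosl. Relative to the median of all genes in the same scaling, Cd69 was 1.80 higher, H2-Ab1 1.32 and Icosl 0.86 with equal totals, and 1.79, 1.32 and 0.87 without Rn45s. March1 was called lower under both scalings, as were 5286 of the 10544 genes tested with equal totals and 3569 without Rn45s, so these calls add little.

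**Figure D4:**
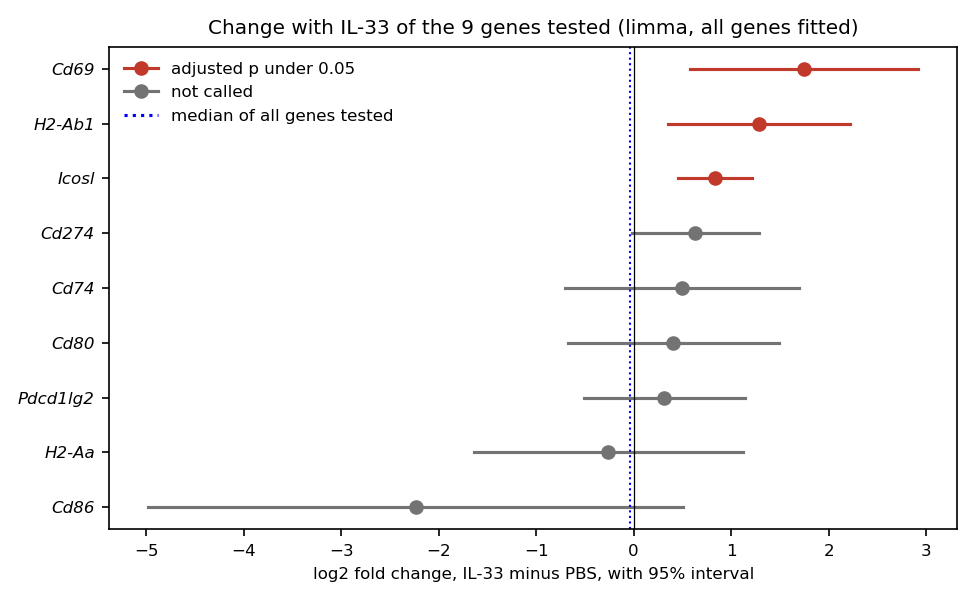
Log2 fold change of IL-33 minus PBS with its 95% interval for the 9 genes tested, in red where the adjusted p was under 0.05, with a dotted line at the median of all genes (−0.03). Cd69, H2-Ab1 and Icosl lie above 0 with their whole intervals, and Cd86 has the widest interval, from −4.98 to 0.51.

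**Figure D5:**
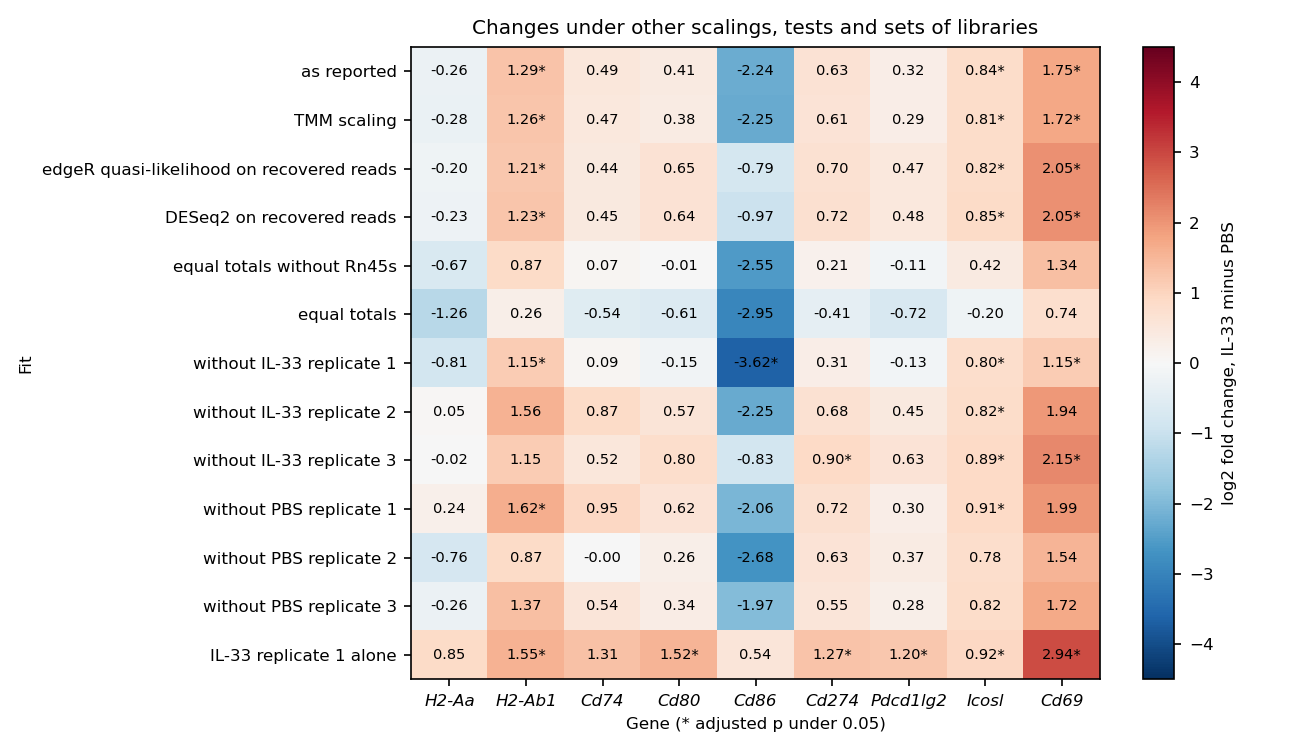
Log2 fold change of IL-33 minus PBS of the 9 genes tested (columns) under each scaling, test and set of libraries (rows), with a star where the adjusted p was under 0.05. The stars of Cd69, H2-Ab1 and Icosl are absent under both equal-total scalings, and Cd86 has a star only without IL-33 replicate 1.

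The genes most like Cd69 and Cd86 across the 6 libraries were picked from 7350 tested genes with a mean of at least 50 normalized counts. Cd69 and Cd86 had the largest and the smallest log2 fold change of the set. Closest to Cd69 by Pearson r on log2(normalized count + 1) were Bcl2a1b, Insig1 and Arhgdia, at 0.998, 0.998 and 0.997. Closest to Cd86 were Sf3a3, Pdlim5 and Dennd2d, each at 0.998. With 6 points that share a treatment and library depth such values are common, since 364 genes had r above 0.9 with Cd69 and 746 with Cd86. Bcl2a1b may share reads with near-identical copies. Within the set, Cd69 and Cd274 were the most alike, at r = 0.953, and H2-Aa and H2-Ab1 were at 0.37 over the same 6 libraries, a description with no test.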

How the data were processed

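Total RNA from 6 libraries lost its ribosomal RNA by a depletion kit and went into directional libraries, per the labels' protocols. The authors deposited 1 table of normalized counts per gene (a signal: counts over 1 factor per library). HISAT2, HTSeq, DESeq2 and build mm10 are named per the submitters' processing notes, while versions, annotation and strand use in counting are not stated there, so reads of overlapping or antisense genes may be mixed. Whole reads were recovered from the deposited values (100.0% whole within 0.1 of a read).

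Genes with a normalized count of at least 10 in at least 3 libraries were fitted with limma 3.58.1 in R 4.3.3 (log2(value + 1), mean-variance trend, no covariates, two-sided, Benjamini-Hochberg over all of them, called under 0.05). Fold changes are on the log2(value + 1) scale, which shrinks those of low genes but lets 1 library at 0 weigh heavily, as in Cd86. Spans and exon lengths are 1-based, from GENCODE (GRCm38). Alternatives were pseudocounts of 0.5 and 5, no filter or one at 50, other scalings, edgeR 4.0.16 and DESeq2 1.42.0 on recovered reads, a replicate block and fits without each library. The fits were also run on simulated counts with the same spread set for every gene and no Rn45s imbalance. Changes were set only in genes with a mean above 50 normalized counts. This run therefore does not test the fits for lower or more variable genes.

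The 10 genes, the related lists and the tests were chosen with earlier results of these data known. From each list the called genes were named, up to 4 per direction, or else the 2 with the smallest p. Likeness was computed for the members with the largest and smallest change, with 3 genes each. H2-Eb1, H2-DMa, H2-Ob, Cd276, Vsir, Ciita and genes given only by reads were named after their values were seen. Emr1 and 4632428N05Rik are older names, and Ly6g was not analysed here. The rule also named 1 gene that is not reported here.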

Additional observations from a re-analysis of the deposited data

How the results depend on the processing

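Over 17 alternatives, 398 values of single genes were recomputed: 312 kept their direction and side of the threshold, 50 lost their call, 16 gained one, and 20 changed sign, of which 0 were called. Equal totals gave 264 genes higher and 5286 lower, with 0 of the 10 genes higher, and equal totals without Rn45s gave 951 and 3569, again with 0. These scalings shift the median of all genes by construction. Under equal totals Cd74 was at −0.54, Cd80 at −0.61, Cd274 at −0.41, Pdcd1lg2 at −0.72, Icosl at −0.20, Rfxap at −0.085, Cd48 at −0.0080, Tnfsf14 at −0.28, Cd63 at −0.16 and Plaur at −0.42 (log2). Without Rn45s, Cd80 was at −0.0091 and Pdcd1lg2 at −0.11. IL-33 replicate 1 alone, chosen with its values known, gave 6 of the 10 genes higher (H2-Ab1, Cd80, Cd274, Pdcd1lg2, Icosl and Cd69), with H2-Aa at 0.85, Cd86 at 0.54 and Rfxap at −0.26; the cause was not tested. Without 1 library at a time, 695 to 2910 genes were higher and 318 to 2950 lower, and of the 10 genes 0 to 3 were higher and 0 to 1 lower. In those fits H2-Aa ran from −0.81 to 0.24, Cd74 from −0.0028 to 0.95, Cd80 from −0.15 to 0.80 and Pdcd1lg2 from −0.13 to 0.63. Where a group was left with 2 libraries, fewer samples entered the fit.

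The replicate block gave 1620 genes higher and 1298 lower and changed no call among the 10 genes. It called H2-Eb1 higher (adjusted p = 0.0225, limma) and H2-DMb1 not (adjusted p = 0.0683, limma). Over all genes tested, deviations of same-numbered libraries correlated at 0.0459, 0.242 and −0.164, and IL-33 replicate 1 correlated better with PBS replicate 3 (0.237). The main fit therefore did not pair the samples by number, but these correlations do not settle whether the numbers pair them. With the block, the SE went from 0.52 to 0.22 for Cd74 and from 0.60 to 0.32 for H2-Aa. That of Icosl went from 0.17 to 0.20. Low counts limit what can be said of Cd83, Cd86 and H2-DMb1.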
